A study of Mus musculus with 6 samples.

Results

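Amino acids cross the plasma membrane through carriers of the Slc families, and 10 genes of this kind are described here in mouse splenic B-cells at rest and after stimulation with lipopolysaccharide (LPS). They were taken by name from 46963 gene names in the count table: Slc7a3, Slc7a1, Slc7a5, Slc7a6, Slc7a11, Slc3a2, Slc1a4, Slc1a5, Slc38a1 and Slc38a2. All 10 were found, and all 10 were tested, being among 14600 genes that reached 10 counts in 2 or more libraries. Slc7a3 was picked on its values, namely at most 2 counts in each resting library and at least 75 in each LPS library, so its own rise is given as a description without a test. The other 9 were chosen as transporters with earlier results of these data known.

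The study compared the enhancers at either end of the immunoglobulin heavy chain locus, the intronic Eμ enhancer and the 3′ regulatory region (3′RR), and asked whether each acts on the other. RNA was sequenced from CD43- splenic B-cells. The mice were wt, carried the Eμ deletion or carried the 3′RR deletion, were 8 to 12 weeks old and of both sexes. CD43 depletion removes T-cells, myeloid cells and plasma cells, so the preparations are enriched for, and not purely, resting mature B-cells. Both deletions are carried by every cell of the animal and not by B-cells alone, the Eμ deletion includes the flanking matrix attachment regions (EμMAR), and all 3 lines were on a shared 129 strain background. There was 1 library for each of the 6 combinations of genotype and state, made from cells pooled from 2 mice by the labels. The methods describe 4 mice and 2 pools per genotype, and whether a library stands for 1 pool or for both was not settled. The LPS libraries came from cells kept 2 days with LPS, given as 5 µg/ml in the sample characteristics and in the methods and in mg/ml in the protocol text. The labels describe the resting cells as cultured 2 days without LPS and the methods describe them as taken before stimulation, so the time in culture and LPS cannot be told apart if the second account holds.

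Slc7a3, Slc7a1 and the barely detected Slc7a2 encode CAT proteins, which carry arginine, lysine and ornithine and work alone. Slc7a5 (LAT1, an exchanger of leucine and other large neutral amino acids), Slc7a6 (y+LAT2, which trades arginine for neutral amino acids) and Slc7a11 (xCT, which takes up cystine in exchange for glutamate) are light chains that reach the surface bound to 1 shared heavy chain, CD98, the product of Slc3a2. Slc1a4 (ASCT1) and Slc1a5 (ASCT2) exchange small neutral amino acids, serine among them, and of the pair Slc1a5 is the carrier of glutamine. Slc38a1 (SNAT1) and Slc38a2 (SNAT2) bring in glutamine and alanine together with sodium. Lymphocytes that leave the resting state grow before they divide, and supply of amino acids through such carriers is known to feed protein synthesis and the mTORC1 kinase, a sensor of amino acids. When amino acids run short, the transcription factor ATF4 is known to switch on transporters and synthetic enzymes together.

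All 10 are protein-coding genes, whose exons no other annotated gene overlaps on either strand (GRCm38, GENCODE M21). On the minus strand lie Slc7a3 at chrX:101079210-101086020 with 11 separate exon blocks, Slc7a1 at chr5:148327410-148399904 with 14, Slc7a5 at chr8:121881150-121907694 with 11 and Slc7a11 at chr3:49892526-50443614 with 13. So do Slc3a2 at chr19:8706882-8723369 with 13, Slc1a4 at chr11:20302180-20332713 with 8, Slc38a1 at chr15:96571418-96642913 with 17 and its neighbour Slc38a2 at chr15:96687392-96699730 with 11. On the plus strand lie Slc7a6 at chr8:106168857-106198706 with 11 and Slc1a5 at chr7:16781340-16798274 with 9.

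Depth was 9111974 to 21998587 gene counts per library, lowest in the 3′RR-deficient LPS library. Synthetic spike-in RNA made up 4.75 to 7.1% of all counts of a library, genes and spike-ins together. Levels are given as counts and as CPM, the count per 1000000 counts of the library after scaling by the trimmed mean of M-values (TMM), so each is a share of a library and not an amount per cell. In such bulk samples fewer cells of a type and less RNA per cell cannot be told apart. The 5 B-cell markers used (Cd79a, Cd79b, Ms4a1, Pax5 and Cd22) were detected in every library, with a summed level of 1380 to 2370 CPM. The sum of 7 erythroid markers was 19600 CPM in the resting Eμ-deficient library against 3370 and 3810 in the other resting libraries and 55.9 to 665 after LPS. The sum of 8 myeloid markers was 357, 153 and 151 CPM in the same resting order and 22.5 to 35.1 after LPS, that of 8 T-cell markers 26.8 to 44.4 at rest and 5.22 to 16.5 after LPS, and that of 5 plasma cell markers 2180 and 1580 in the Eμ-deficient libraries against 550 to 883 in the others. The part of these cells in the results below was not tested. After LPS, the ratio between 3′RR-deficient and wt cells followed the GC content of the genes (Spearman's rho 0.56 over 14358 genes, which share the same 2 libraries), with a median on the log2 scale of -0.92 in the 10% of genes lowest in GC and 0.73 in the 10% highest. The same ratio varied with an SD of 1.27 over 35 spike-ins.

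Slc7a3 went from nearly no counts to a clear signal in each genotype. At rest its counts were 0 in wt, 2 in Eμ-deficient and 2 in 3′RR-deficient cells. After LPS it had 273, 95 and 75 counts, or 13.7, 8.83 and 8.35 CPM. The resting and LPS libraries did not overlap, as the rule had fixed. With 3 counts set in place of the 0, the wt LPS library was 82.6-fold higher than the wt resting library. The lower end of the 95% counting interval of the ratio, taken on the counts themselves, was 66.7-fold. In Eμ-deficient cells the log2 ratio was 5.9 (95% interval 4.01 to 8.97, Clopper-Pearson on the counts) and in 3′RR-deficient cells 6.45 (4.54 to 9.52). These intervals, like those below, cover counting error only, since reads copied by PCR are not independent molecules and there was 1 library on each side.

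The limits of the rule, 2 counts at rest and 75 after LPS, are the highest resting and the lowest LPS count of Slc7a3 itself. Of 46963 gene names only Slc7a3 met them, which is therefore no measure of how rare such a rise is. Allowing up to 5 counts at rest and at least 30 after LPS added 3 genes. Lrr1, which encodes a subunit of a ubiquitin ligase, had 2, 2 and 5 counts at rest and 147, 59 and 38 after LPS in wt, Eμ-deficient and 3′RR-deficient cells. The other two are predicted genes, Gm26654 with 3, 0 and 5 counts at rest and 119, 69 and 100 after LPS, and Gm37795 with 5, 2 and 4 at rest and 38, 53 and 36 after LPS.

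Likeness of pattern was measured as the root mean square difference of the log2 CPM of 2 genes over the 6 libraries, each gene centred on its own mean. Counts under 3 were set to 3, and 11126 genes with 75 or more counts in some library were compared. All resting values of Slc7a3 thus stood at this floor. Its pattern is also the one on which it was picked, so the genes near it are a description and no result about shared control. The nearest to Slc7a3 was Zbtb32 (0.542), a zinc finger repressor of lymphocytes, followed by Lrr1 (0.608), Gm26654 (0.622), Aunip (0.659) and Bcat1 (0.729), a cytosolic enzyme that removes the amino group of leucine, isoleucine and valine. Zbtb32 had 29, 17 and 40 counts at rest and 1682, 1243 and 1088 after LPS. Bcat1 had 40, 25 and 32 at rest and 817, 508 and 370 after LPS. Of the other 9 transporters the closest was Slc1a4 at 1.363 and the most distant Slc38a2 at 3.338.

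Within the LPS libraries Slc7a3 was lower in both deficient genotypes than in wt. The log2 ratio to wt was -0.64 in Eμ-deficient cells (-0.99 to -0.29) and -0.71 in 3′RR-deficient cells (-1.1 to -0.34). Between the deficient genotypes the levels of 8.83 and 8.35 CPM differed by little. At rest no genotype ratio is given, since all 3 libraries held fewer than 3 counts. Slc7a3 lies on chromosome X, and the sex of the animals in each pool was not given.

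**Figure D1:**
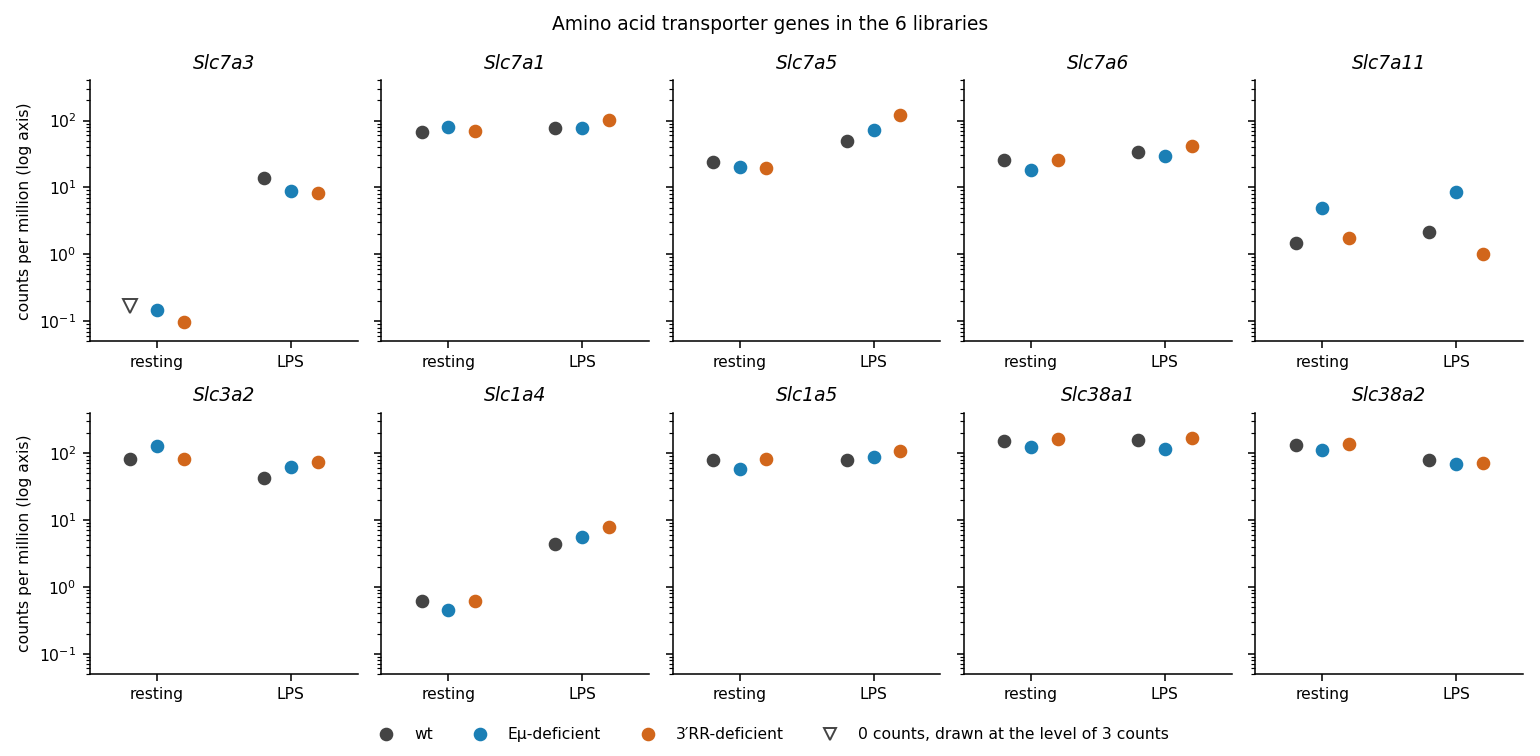
Level of each of the 10 genes in each of the 6 libraries, in CPM on a log axis, with resting libraries on the left and LPS libraries on the right of each panel and genotypes by colour. Slc7a3, Slc7a5, Slc1a4 and Slc7a6 are higher in all 3 LPS libraries than in any resting library, and Slc38a2 and Slc3a2 are lower in all 3. The open triangle marks the wt resting library, where Slc7a3 had 0 counts, at the level of 3 counts.

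Slc7a1, the other cationic carrier and the one most cells use, was already expressed at rest, and its LPS values lay close to its resting values. It had 66.8, 81.3 and 68.8 CPM at rest and 76.8, 76.7 and 101 after LPS in wt, Eμ-deficient and 3′RR-deficient cells. The LPS ratio was 0.2 in wt (log2, 0.09 to 0.31), -0.08 in Eμ-deficient and 0.56 in 3′RR-deficient cells, and with the GC trend removed 0.36, -0.12 and 0.39. Across the genotypes the LPS effect was 0.23 ± 0.234 (log2 fold change ± SE, edgeR's quasi-likelihood test, adjusted p = 0.464). Slc7a2 had 0, 7 and 22 counts at rest and 5, 28 and 1 after LPS. Divided by exon length, Slc7a3 made up 0, 0.546 and 0.415% of the summed level of these 3 genes at rest and 35.2, 25.2 and 20.0% after LPS in wt, Eμ-deficient and 3′RR-deficient cells. Slc7a1 thus stayed the largest share in every library, at 64.6% or more.

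That test, used from here on, fitted genotype and state as additive terms to all 14600 genes, so the 3 genotypes stood in as replicates of LPS, and its p-values, adjusted by the Benjamini-Hochberg method over all genes, measure the LPS effect against how unevenly it was spread over the genotypes. LPS changed much of the transcriptome: 20.7% of genes rose and 20.4% fell. Of the 9 transporters other than Slc7a3, 2 rose (Slc7a5 and Slc1a4) and 1 fell (Slc38a2). These shares are near the background and are no result about transporters as a group. Slc7a3 was left out of this count, since it was chosen on the same contrast. Counted without a test, 9.8% of genes were at least 2-fold higher after LPS in each genotype, with Slc7a5 and Slc1a4 among them. Slc7a3 was there too, as its choice had fixed. At least 2-fold lower in each were 10.7% of genes, with 0 of the 10. The median log2 LPS ratio of the 10 genes was 0.29 in wt, 0.64 in Eμ-deficient and 0.5 in 3′RR-deficient cells. Over all genes tested it was -0.02, 0.02 and -0.08. The medians of the 10 include Slc7a3, so they are a description and no comparison with the background.

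**Figure D2:**
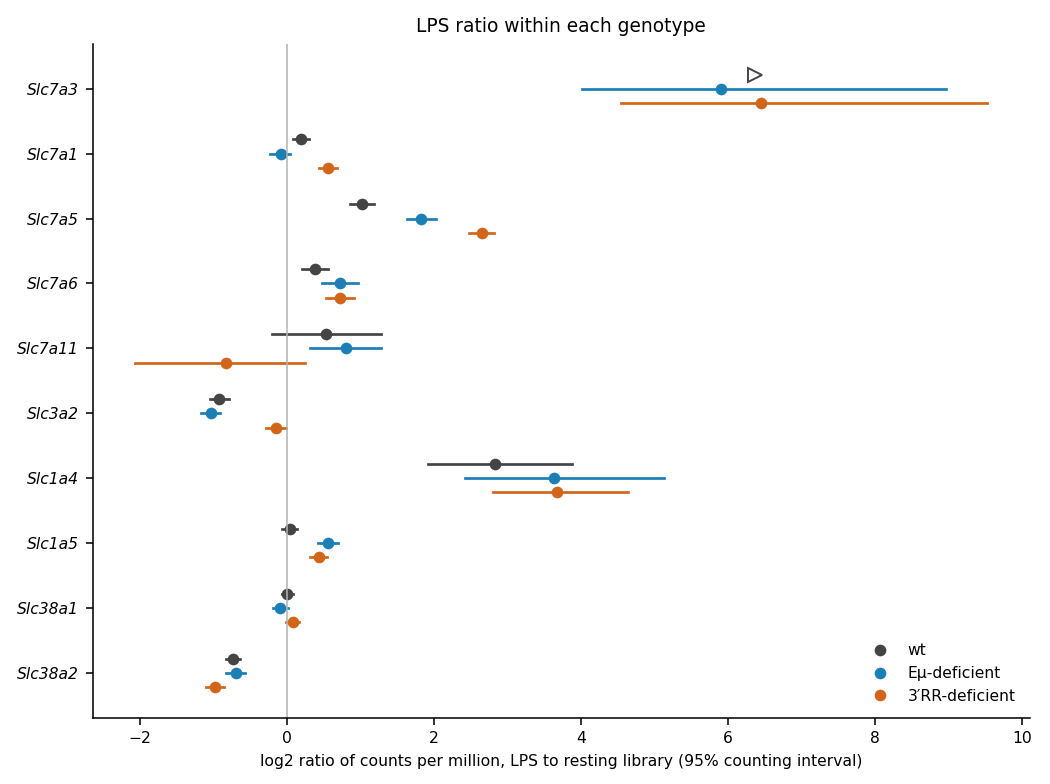
Log2 ratio of the LPS to the resting library within each genotype for the 10 genes, with 95% counting intervals as bars and genotypes by colour. The open triangle is the wt value of Slc7a3 with 3 counts set in place of its resting count of 0. Slc7a5 steps up from wt (1.02) to Eμ-deficient (1.83) to 3′RR-deficient cells (2.65) without overlap of the intervals (1.51, 1.8 and 2.45 with the GC trend removed), and Slc3a2 and Slc38a2 lie below 0 in each genotype.

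Slc7a5, the leucine carrier, rose with LPS in each genotype. It had 433, 272 and 410 counts at rest (24, 20.1 and 19.7 CPM) and 970, 767 and 1107 counts after LPS (48.7, 71.3 and 123 CPM) in wt, Eμ-deficient and 3′RR-deficient cells. All LPS libraries lay above all resting libraries, and the step was smallest in wt cells, at a log2 ratio of 1.02 (0.86 to 1.19). In Eμ-deficient cells the ratio was 1.83 and in 3′RR-deficient cells 2.65. With the GC trend of each pair of libraries removed the ratios were 1.51 in wt, 1.8 in Eμ-deficient and 2.45 in 3′RR-deficient cells. Over the genotypes the LPS effect was 1.83 ± 0.319 (edgeR, adjusted p = 0.00203).

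The genotypes lay close together for Slc7a5 at rest and apart after LPS. At rest the log2 ratio to wt was -0.26 in Eμ-deficient cells (-0.48 to -0.03) and -0.29 in 3′RR-deficient cells (-0.48 to -0.09). After LPS it was 0.55 (0.41 to 0.69) and 1.34 (1.21 to 1.47). Whether LPS acted differently by genotype cannot be tested with 1 library per combination. Slc7a5 is GC-rich (56.3% GC, above 85.8% of genes), and with the GC trend of the 2 libraries removed its 3′RR-deficient to wt ratio after LPS was 0.76 and its Eμ-deficient to wt ratio 0.38, and at rest they were -0.21 and 0.11.

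Slc1a4, which carries alanine, serine and cysteine, was near the limit of detection at rest and rose with LPS. It had 11, 6 and 13 counts at rest and 86, 59 and 71 after LPS in wt, Eμ-deficient and 3′RR-deficient cells. All LPS libraries lay above all resting libraries. In CPM the resting range was 0.443 to 0.623 and the LPS range 4.32 to 7.91. The log2 LPS ratio was 2.83 in wt (1.92 to 3.88), 3.63 in Eμ-deficient (2.42 to 5.13) and 3.67 in 3′RR-deficient cells (2.8 to 4.64), and these intervals overlapped. The fitted effect was 3.35 ± 0.399 (edgeR, adjusted p = 0.000315). After LPS the ratio to wt was 0.34 in Eμ-deficient cells (-0.16 to 0.84) and 0.87 in 3′RR-deficient cells (0.4 to 1.34), and with the GC trend removed 0.22 and 0.5.

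Its relative Slc1a5, the main glutamine exchanger, was abundant in both states. It had 77.6, 58.5 and 80.5 CPM at rest and 79.7, 86.3 and 109 after LPS, and the states overlapped. The LPS ratio was 0.04 in wt, 0.56 in Eμ-deficient and 0.44 in 3′RR-deficient cells on the log2 scale, and the fitted effect of 0.35 ± 0.231 did not pass (edgeR, adjusted p = 0.256). With the GC trend removed the wt ratio was 0.56 and the 3′RR-deficient one 0.25, and the fitted effect of 0.45 passed (adjusted p = 0.0389). It also passed without the wt libraries (0.5 ± 0.215, edgeR, adjusted p = 0.0488). It did not pass without the Eμ-deficient (0.22 ± 0.453, adjusted p = 0.759) or 3′RR-deficient ones (0.25 ± 0.367, adjusted p = 0.635). Here and below, a fit without a genotype estimated the spread anew from fewer libraries, so its adjusted p-values are not directly comparable with those of the main fit. Per exon length Slc1a4 was 0.798 to 0.826% of the summed level of the pair at rest and 5.45 to 7.15% after LPS, so Slc1a5 remained the larger of them by far. Slc1a5 is as GC-rich as Slc7a5 (56.7%), and its 3′RR-deficient to wt ratio after LPS turned from 0.45 to -0.15 with the GC trend removed.

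For 6 of the 10 genes RefSeq promoter windows were at hand (8 windows of 300 bases, the last 50 of them after the start). Slc7a3, Slc7a5, Slc1a5 and Slc38a1 had no window, so their promoters were not searched. The windows were searched on both strands for the E-box CACGTG, which MYC binds, and for TGATGNAA, the core to which ATF4 binds with its partners. CACGTG was in 0 of the 8 windows, in 7.15% of all 32851 windows and in 10% of those of tested genes. TGATGNAA was in 2 of the 8, in 3.97% of all windows and in 2.41% of those of tested genes. The stretch from 100 bases before the start to 4 after it is shown for the 2 genes with a match, to let the cystine carrier, which did not rise throughout, be set beside Slc1a4, which did. Both are given 5′ to 3′ on the gene's strand from GRCm38.p6, with the matches in capitals. Slc7a11 is at chr3:50443610-50443713 and Slc1a4 at chr11:20332710-20332813, both on the minus strand.
Slc7a11: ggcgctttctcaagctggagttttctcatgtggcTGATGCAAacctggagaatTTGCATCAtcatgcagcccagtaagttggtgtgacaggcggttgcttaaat
Slc1a4: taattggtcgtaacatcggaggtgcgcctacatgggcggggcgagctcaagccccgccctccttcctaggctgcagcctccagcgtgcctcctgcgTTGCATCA
Slc7a11 held the letters once in each orientation, at -66 and -47 from the start, and Slc1a4 once in the opposite orientation, at -4 and running across the start. A match is a description of the letters and says nothing of binding in these cells.

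Slc7a11, the cystine carrier, was low in every library and highest in Eμ-deficient cells in each state. It had 27, 66 and 37 counts at rest and 43, 91 and 9 after LPS in wt, Eμ-deficient and 3′RR-deficient cells, or 1.49, 4.87 and 1.77 CPM and 2.16, 8.45 and 1.0 CPM. The log2 LPS ratio was 0.53 in wt (-0.2 to 1.28), 0.8 in Eμ-deficient (0.32 to 1.28) and -0.82 in 3′RR-deficient cells (-2.06 to 0.25), and the fitted effect was 0.27 ± 0.407 (edgeR, adjusted p = 0.619). The ratio of Eμ-deficient cells to wt was 1.7 at rest (1.04 to 2.41) and 1.97 after LPS (1.43 to 2.53). Fitted over both states it was 1.84 ± 0.481, which did not pass (edgeR, adjusted p = 0.147). Without the 3′RR-deficient libraries in the fit the same value was 1.83 ± 0.488 (edgeR, adjusted p = 0.00732). Effect and SE thus hardly differed from the main fit, and the lower adjusted p came with no gain in precision. The Eμ-deficient libraries were also those with the highest erythroid, myeloid and plasma cell marker sums of their state, and the part of those cells was not tested. The ratio of 3′RR-deficient cells to wt was 0.25 at rest and, on 9 against 43 counts, -1.11 after LPS (-2.33 to -0.05). With 40.7% GC it was the most GC-poor of the 10, and with the GC trend removed that ratio was -0.31 (0.12 at rest) and the LPS ratios were 0.01, 0.85 and -0.55 in wt, Eμ-deficient and 3′RR-deficient cells.

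Slc7a6, the light chain that releases arginine, had 25.9, 18.1 and 25.4 CPM at rest and 33.8, 29.8 and 42 after LPS. Each LPS library lay above each resting library. The log2 LPS ratio was 0.38 in wt, 0.72 in Eμ-deficient and 0.73 in 3′RR-deficient cells, and the fitted effect of 0.61 ± 0.222 just missed the threshold (edgeR, adjusted p = 0.0526). It passed without the wt libraries (0.72, adjusted p = 0.00407) and with the GC trend removed (0.56, adjusted p = 0.0233), and not without the Eμ-deficient (0.54, adjusted p = 0.368) or the 3′RR-deficient libraries (0.5, adjusted p = 0.295).

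Slc3a2, the heavy chain that these light chains share, had lower values after LPS. It had 1466, 1717 and 1671 counts at rest (81.1, 127 and 80.1 CPM) and 855, 666 and 650 after LPS (42.9, 61.9 and 72.4 CPM) in wt, Eμ-deficient and 3′RR-deficient cells. Each LPS library lay below each resting library. The log2 LPS ratio was -0.92 in wt (-1.04 to -0.79), -1.03 in Eμ-deficient (-1.17 to -0.9) and -0.15 in 3′RR-deficient cells (-0.28 to -0.01). The fitted effect of -0.70 ± 0.256 narrowly missed the threshold (edgeR, adjusted p = 0.0529) and passed it in DESeq2 (adjusted p = 0.0343). In edgeR it passed without the 3′RR-deficient libraries (-1.03 ± 0.37, adjusted p = 0.0191) and without the wt libraries (-0.59 ± 0.225, adjusted p = 0.0255). It did not pass without the Eμ-deficient libraries (-0.55 ± 0.447, adjusted p = 0.384). Relative to wt the gene was higher in Eμ-deficient cells at rest (0.64, 0.54 to 0.74) and after LPS (0.53, 0.38 to 0.67), and in 3′RR-deficient cells after LPS (0.75, 0.6 to 0.9). With the GC trend removed the last of these was 0.35, and the LPS ratios were -0.61, -1.07 and -0.35 in wt, Eμ-deficient and 3′RR-deficient cells. CD98 is also found on other blood cells. Erythroid and myeloid markers were highest in the resting Eμ-deficient library, and the part of those cells was not tested.

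The balance of heavy and light chain transcripts turned over between the states. Per kilobase of exon, the 6 genes of light chains known to bind CD98 (Slc7a5, Slc7a6, Slc7a7, Slc7a8, Slc7a10 and Slc7a11) together reached 0.659, 0.418 and 0.584 of the Slc3a2 level at rest in wt, Eμ-deficient and 3′RR-deficient cells. After LPS they reached 1.88, 1.71 and 2.2 times its level. The resting and LPS libraries did not overlap in this measure. Slc7a5 alone went from 0.281, 0.151 and 0.234 of the Slc3a2 level to 1.08, 1.1 and 1.62. Its share of the light chain sum was 36.1 to 42.6% at rest and 57.5 to 73.5% after LPS. Among the other partners, Slc7a7 (y+LAT1) had 77 to 213 counts in the 6 libraries with a fitted LPS effect of -0.18 ± 0.291 (edgeR, adjusted p = 0.638), Slc7a8 (LAT2) had 6 to 37 counts, with -1 ± 0.465 (edgeR, adjusted p = 0.112), and Slc7a10 had 0 to 3 counts and was not tested.

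**Figure D3:**
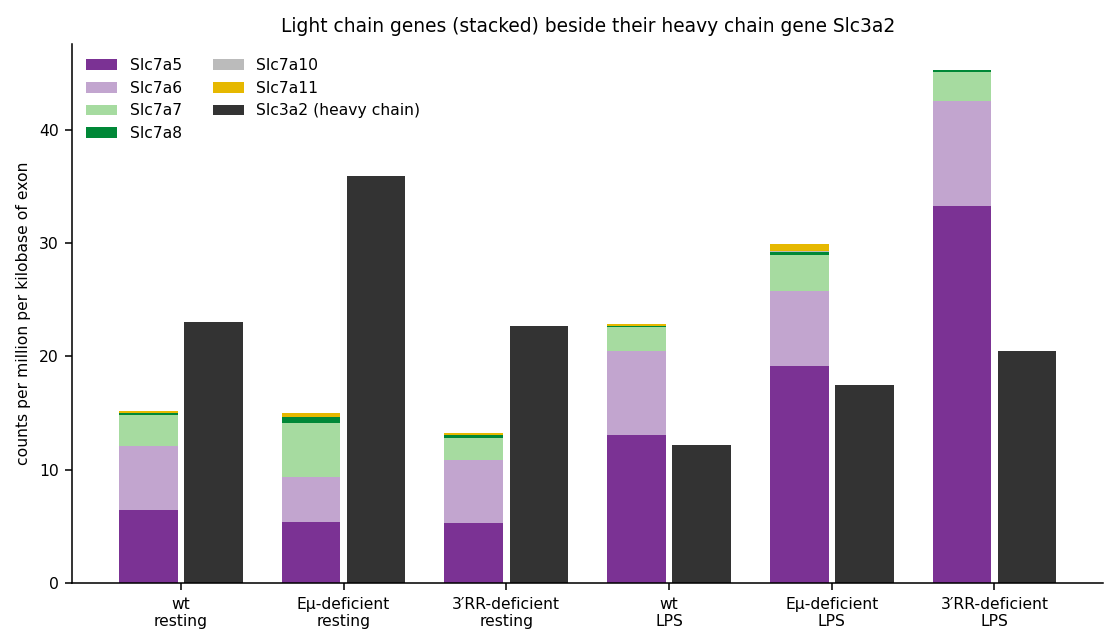
Levels of the 6 light chain genes, stacked, beside that of their heavy chain gene Slc3a2 in each library, in CPM per kilobase of exon. At rest the stack is lower than Slc3a2 in each genotype (0.418 to 0.659 of its level), and after LPS it is higher (1.71 to 2.2 times), most of it from Slc7a5.

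The sodium-coupled pair differed. Slc38a1 had 153, 123 and 161 CPM at rest and 154, 116 and 169 after LPS and had the smallest fitted LPS effect of the 10 genes (edgeR, adjusted p = 1). Its log2 LPS ratio was 0.01 in wt (-0.07 to 0.08), -0.09 in Eμ-deficient (-0.19 to 0.02) and 0.08 in 3′RR-deficient cells (-0.01 to 0.17). As folds these intervals together ran from 0.874 to 1.12, and with the GC trend removed the log2 ratios were -0.06, -0.12 and -0.02. Slc38a2, known to be raised when cells are starved of amino acids, had 2343, 1519 and 2867 counts at rest (130, 112 and 137 CPM) and 1560, 747 and 628 after LPS (78.4, 69.4 and 70.0 CPM). Each LPS library lay below each resting library. The ratio was -0.73 in wt (-0.82 to -0.63), -0.69 in Eμ-deficient (-0.82 to -0.56) and -0.97 in 3′RR-deficient cells (-1.1 to -0.85), and the gene fell by the test (-0.80 ± 0.228, edgeR, adjusted p = 0.0206). The 3′RR-deficient to wt ratio after LPS was -0.16 and turned to 0.23 with the GC trend removed. The LPS call was lost without the Eμ-deficient libraries (-0.87, adjusted p = 0.157) or without the 3′RR-deficient ones (-0.76, adjusted p = 0.101). Slc38a2 made up 62.3 to 64.0% of the level of the pair per kilobase at rest and 44.6 to 53.9% after LPS.

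In order of level per kilobase of exon, Slc3a2 led the 10 genes at rest with a median of 23 CPM per kilobase over the genotypes, followed by Slc1a5 (18.6), Slc38a2 (14.7), Slc38a1 (8.87), Slc7a1 (5.97), Slc7a6 (5.55), Slc7a5 (5.41), Slc1a4 (0.155), Slc7a11 (0.127) and Slc7a3 (0.0253). Neighbours whose ranges over the genotypes overlapped were Slc1a5 and Slc38a2, Slc7a6 and Slc7a5, and Slc1a4 and Slc7a11. After LPS the order was Slc1a5 (20.7), Slc7a5 (19.2), Slc3a2 (17.5), Slc38a1 (8.93), Slc38a2 (7.91), Slc7a6 (7.4), Slc7a1 (6.66), Slc7a3 (2.33), Slc1a4 (1.4) and Slc7a11 (0.155). The first 3 overlapped in a chain, as did Slc38a1, Slc38a2, Slc7a6 and Slc7a1. Slc7a5 thus moved from the seventh place to the second and Slc7a3 from the last to the eighth, while Slc7a11 took the last place. By pattern over the 6 libraries, Slc7a6 and Slc1a5 were the closest pair (root mean square difference 0.161), and Slc3a2 and Slc38a2 were each other's closest (0.413).

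None of the 10 genes passed the test over both states for either deletion. Each genotype had 1 library per state in this fit, so an effect of a deletion that differed between the states counted as spread. A gene that did not pass is therefore not shown to be unchanged. For 3′RR-deficient against wt cells, edgeR called 0 of 10, DESeq2 called 0 and 0 had an unadjusted p under 0.05, beside 0.76% of genes called. For Eμ-deficient against wt cells, edgeR called 0 of 10, DESeq2 called 0 and 1, Slc7a11, had an unadjusted p under 0.05, beside 1.14% of genes called. Within a state and without a test, 0 of 10 differed 2-fold or more between resting 3′RR-deficient and wt cells, against 9.27% of genes. After LPS Slc7a5 and Slc7a11 did, against 26.5% of genes. In Eμ-deficient cells Slc7a11 did in both states, against 18.2% of genes at rest and 12.5% after LPS. The median log2 ratio of the 10 genes to wt was 0.04 and 0.36 in 3′RR-deficient cells at rest and after LPS and -0.23 and 0.06 in Eμ-deficient cells, beside -0.01, 0.03, -0.01 and -0.06 over all genes tested. Both comparisons share the wt libraries.

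**Figure D4:**
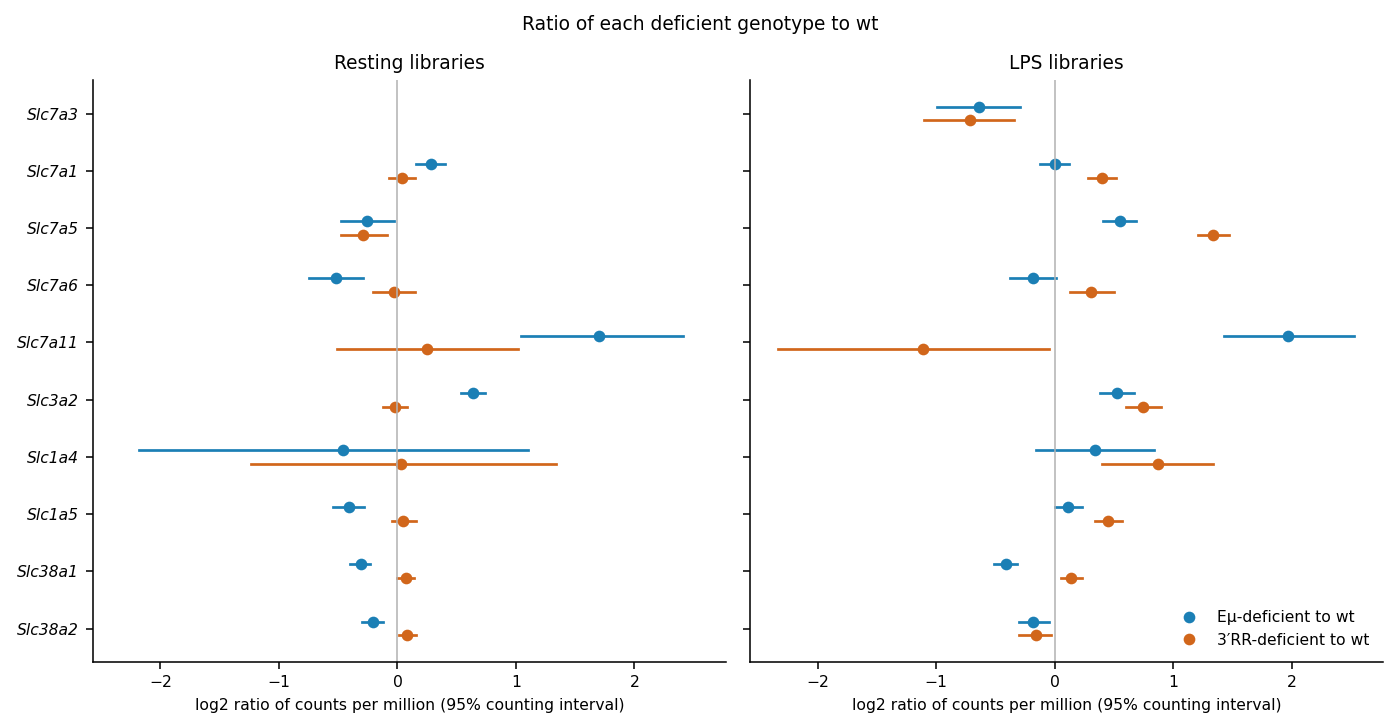
Log2 ratio of each deficient genotype to wt for the 10 genes, at rest on the left and after LPS on the right, with 95% counting intervals as bars. Slc7a11 stands above 0 in Eμ-deficient cells in both states (1.7 and 1.97), Slc7a5 passes from below 0 at rest to above 0 after LPS in both genotypes, and Slc7a3 is drawn after LPS alone, since it had fewer than 3 counts at rest.

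The remaining amino acid transporters of the cell surface were mostly silent. Of 26 listed, 11 were tested, and 1 rose with LPS and 3 fell by edgeR, beside 20.7 and 20.4% of all genes. Their median log2 fold change was -0.91, beside -0.03 over all genes tested. Slc1a1, a glutamate carrier, was called higher after LPS on low counts (2.31 ± 0.642, edgeR, adjusted p = 0.0183). It had 2, 2 and 11 counts at rest in wt, Eμ-deficient and 3′RR-deficient cells and 23, 14 and 11 after LPS. In 3′RR-deficient cells the counts were thus equal, and the states differed only through the scaling for depth (20780706 gene counts at rest and 9111974 after LPS). Slc1a3, a further glutamate carrier, fell from 7, 58 and 48 counts to 0, 0 and 3 (-4.42 ± 0.889, edgeR, adjusted p = 0.00416), and Slc16a10, a carrier of aromatic amino acids, fell by 1.34 ± 0.428 on the log2 scale (edgeR, adjusted p = 0.0322). Of the transporters of the lysosome membrane 0 of 9 tested rose and 5 fell by edgeR, with a median of -0.74, beside 20.7 and 20.4% of all genes. None of the 9 rose at an unadjusted p under 0.05 (0 genes) or by DESeq2 (0 genes). The largest falls were those of Slc15a3, a carrier of histidine and small peptides (-1.65 ± 0.289, adjusted p = 0.00209), and Pqlc2, a carrier of cationic amino acids (-1.35 ± 0.276, adjusted p = 0.00443).

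Genes that use or make the cargo were taken as lists. The list of glutamine, asparagine, serine and proline metabolism also held enzymes that act on leucine, isoleucine and valine, Bcat1 among them. Of its 19 tested genes, 13 rose and 1 fell, with a median of 1.8, beside 20.7 and 20.4% of all genes. The largest rises were those of Bcat1 (4.53 ± 0.275, edgeR, adjusted p = 4.36e-05) and Psat1, an enzyme of serine synthesis (3.65 ± 0.26, adjusted p = 5.28e-05). Glul, which makes glutamine, fell by 0.95 ± 0.239 (edgeR, adjusted p = 0.0118). The list of arginine and ornithine metabolism, both of them cargo of Slc7a3 and Slc7a1, had 7 tested genes that make, use or regulate the use of these amino acids. Of these, 1 rose in edgeR and 0 in DESeq2, beside 20.7 and 19.6% of all genes. The gene called by edgeR was Asl (0.85 ± 0.277, edgeR, adjusted p = 0.0352), and the 2 arginases had at most 2 counts in any library.

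Of 14 tested genes of glutathione and cystine use, 6 rose and 2 fell by edgeR (median 0.81), beside 20.7 and 20.4% of all genes. Cth, which makes cysteine from cystathionine, went from 1, 4 and 3 counts in wt, Eμ-deficient and 3′RR-deficient cells to 45, 64 and 22 (4.39 ± 0.522, edgeR, adjusted p = 0.00031), and Chac1, which breaks glutathione down, from 5, 6 and 14 to 48, 163 and 77 (3.98 ± 0.455, adjusted p = 0.000259). Hmox1 (-2.94 ± 0.252, adjusted p = 8.06e-05) and Nfe2l2, the factor behind the oxidative stress response (-1.03 ± 0.232, adjusted p = 0.00726), fell by edgeR. Hmox1 is strongly expressed by macrophages, and all 8 markers of the myeloid list also fell by edgeR. The part of those cells in the fall of Hmox1 was not tested.

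Of 18 tested genes of the ATF4 pathway, 5 rose and 7 fell after LPS by edgeR (median -0.25), beside 20.7 and 20.4% of all genes. Rises and falls side by side were thus also the rule over all genes. Atf4 itself had 4572, 2585 and 4740 counts at rest and 3338, 1544 and 1707 after LPS in wt, Eμ-deficient and 3′RR-deficient cells, a fitted effect of -0.42 ± 0.243 (edgeR, adjusted p = 0.193). Asns, asparagine synthetase, rose by 2.83 ± 0.452 (edgeR, adjusted p = 0.00129), as did Chac1 above. Atf3 (-4.15 ± 0.276) and Ppp1r15a, a phosphatase subunit that ends the stress response (-4.07 ± 0.28), fell (edgeR, adjusted p = 5.28e-05 for each). Of 30 tested genes of amino acid sensing and mTORC1, 2 rose and 9 fell (median -0.22), beside the same 20.7 and 20.4% of all genes. Eif4ebp1, a target of mTORC1 (1.46 ± 0.321, edgeR, adjusted p = 0.00628), and Lamtor5, a part of its anchor on the lysosome (0.99 ± 0.257, adjusted p = 0.0133), rose, and Rragd, a GTPase that recruits it (-2.64 ± 0.512, adjusted p = 0.00346), and Sesn1, a brake on it (-2.44 ± 0.292, adjusted p = 0.000319), fell by edgeR. For the deletions, edgeR called 0 of the 105 tested genes of these 7 lists, beside 0.76% of all genes for 3′RR-deficient and 1.14% for Eμ-deficient cells. For 3′RR-deficient cells DESeq2 called 0, and 8 were higher and 3 lower at an unadjusted p under 0.05, beside 2.53 and 3.12% of all genes. For Eμ-deficient cells DESeq2 called 5 higher (Atf3, Eif2ak2, Fnip2, Hmox1 and Slc6a9), beside 1.9% of all genes, and 11 were higher and 1 lower at an unadjusted p under 0.05, beside 6.05 and 2.31%.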

How the data were processed

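RNA from CD43- splenic B-cells was sequenced as rRNA-depleted, stranded, paired-end libraries with spike-ins. Per the labels, reads were aligned to mm10 with STAR 2.4.0a and counted per gene name with featureCounts (Subread 1.4.6-p1), and the authors deposited raw counts for 6 libraries. Groups came from the sample titles. The 92 spike-ins were left out of library sizes. Counts were tested with edgeR 4.0.16 (R 4.3.3) by its quasi-likelihood test with TMM scaling, genotype and state as additive terms, at least 10 counts in at least 2 libraries and a Benjamini-Hochberg threshold of 0.05. SEs are the log2 fold change over the square root of F. Ratios of 2 libraries had no test and carry Clopper-Pearson 95% intervals from scipy 1.17.1. Medians and patterns set counts under 3 to 3. Exon lengths, GC and positions came from GENCODE M21 and promoters from RefSeq. Simulated counts were used to test the fit.

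No separate cultures replicate any genotype and state. The members, gene lists and tests were chosen with earlier results of these data known. Named genes were the members, their complex partners, Atf4, in each list up to 2 rises and 2 falls with the largest called change, and the 5 genes nearest Slc7a3. Slc6a6 and Slc43a2 were named as the other surface transporters with the highest counts. One marker gene is not reported here. Alternatives were other scalings, DESeq2 1.42.0, other filters, removal of GC trends, no genotype term and leaving out each genotype.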

Additional observations from a re-analysis of the deposited data

Results flagged for a closer look

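For 2 genes the ratio to wt pointed one way at rest and the other way after LPS, with the counting interval off 0 each time. Slc7a5 in 3′RR-deficient cells was at -0.29 at rest and 1.34 after LPS on the log2 scale, and in Eμ-deficient cells at -0.26 and 0.55. Slc38a2 in 3′RR-deficient cells was at 0.08 at rest and -0.16 after LPS. The differences between the states were not tested, since there was 1 library per combination of genotype and state. With the GC trend removed Slc7a5 was at 0.11 in resting Eμ-deficient cells and Slc38a2 at 0.23 in 3′RR-deficient cells after LPS, so both of those ratios changed sign.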

How the results depend on the processing

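Slc7a5 and Slc1a4 rose under every alternative, from 1.37 to 2.24 and from 3.12 to 3.63 in log2 fold change, and Slc7a3, without a test, lay between 6.08 and 7.5. Of the 9 other genes, 2 to 4 rose when each genotype was left out in turn and 4 with the GC trend removed, while 0 to 2 fell when each genotype was left out, 2 with total count scaling, 2 without the low-count filter, 2 with the GC trend removed and 2 by DESeq2. Over all genes, leaving out a genotype gave 1918 (without Eμ-deficient) to 3577 genes higher and 2058 to 3438 lower after LPS, against 3016 and 2975. For 3′RR-deficient cells 27 genes were higher and 84 lower, but 135 and 204 without the low-count filter, 56 higher by DESeq2, and 53 and 138 without the Eμ-deficient libraries. For Eμ-deficient cells 128 were higher and 39 lower, but 484 and 121 without the filter, 277 and 63 by DESeq2, 430 and 106 without the 3′RR-deficient libraries, and 25 lower with 1 CPM in 3 libraries. Slc7a11 was then the 1 of 10 called higher without the filter or without the 3′RR-deficient libraries. Its effect (1.84 and 1.83) and SE (0.459 and 0.488) in those fits were close to the 1.84 and 0.481 of the main fit.

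Total count scaling moved the median of all genes for LPS from -0.03 to -0.16 in the fit and to -0.33 in wt, where the median ratio of the 10 genes turned to -0.02 and that of Slc7a1 to -0.11. It also moved the median to -0.12 (and Slc38a2 to -0.08) in resting and 0.48 in LPS 3′RR-deficient cells, and to -0.38 and 0.18 in Eμ-deficient cells. With the GC trend removed the medians were 0.32 for LPS in 3′RR-deficient cells, 0.19 for 3′RR-deficient cells after LPS, and 0.04 at rest and -0.07 after LPS for Eμ-deficient cells, and Slc1a5 (-0.15), Slc38a2 (0.23) and Slc7a5 (0.11) turned as described above. Slc7a11 ranged from -0.1 (without Eμ-deficient) to 0.62 for LPS when a genotype was left out, and turned to 0.02 for 3′RR-deficient cells with the GC trend removed, and Slc38a1, at 0 for LPS, to 0.00 with spike-ins in library sizes, 0.01 without the genotype term and -0.09 to 0.03 when a genotype was left out. The causes were not tested. The LPS fit pairs the libraries of each genotype through the genotype term, and without that pairing 2779 genes were higher and 2617 lower, with the 2 rises and 1 fall among the 9 genes kept in number. The labels give no replicate number to block on. Counts under 10 (Slc7a3 at rest, Slc1a4 in resting Eμ-deficient and Slc7a11 in LPS 3′RR-deficient cells) widen those ratios' intervals.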
